A study of Mus musculus with 24 samples.

Results

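The genes described here are 10 genes of polyamine synthesis and turnover in mouse embryonic fibroblasts (MEFs): Odc1, Srm, Sms, Amd1, Sat1, Smox, Paox, Oaz1, Oaz2 and Azin1. They were chosen by name, with earlier results of these data known. All 10 were found among the 41710 genes of each of 2 deposited tables. These cover primary MEFs and MEFs immortalized with a lentivirus that carries SV40 T-antigen and blasticidin resistance. Each table held 4 genotypes with 3 libraries apiece: WT, MlxKO, MycKO and the double knockout (DKO), in which both loci were removed. All MEFs came from pooled embryos of about embryonic day 14 to 16, carried floxed alleles together with CreER, a tamoxifen-activated Cre that the ROSA26 promoter drives in most cell types, and WT cells were those whose loci were left intact. Embryos were pooled within each group of floxed mice, so genotype and embryo pool cannot be told apart. Excision followed exposure of the knockout cultures to 500 nM 4-hydroxytamoxifen. The paper describes vehicle alone or drug-free medium for the controls, so drug exposure and knockout cannot be told apart in comparisons with WT. Primary cells were sequenced at the paper's day 10. Libraries are named below by genotype and by the number in the table's column heading, such as MycKO9, and a number shared by genotypes does not pair their libraries.

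Polyamines (putrescine, spermidine and spermine) are small organic cations that bind nucleic acids and are needed for growth. Odc1 (ornithine decarboxylase) makes putrescine, Amd1 (S-adenosylmethionine decarboxylase) supplies aminopropyl groups, and Srm and Sms use these to build spermidine and spermine. Antizymes such as Oaz1 and Oaz2 bind Odc1 and send it to the proteasome, Azin1 holds antizyme away from Odc1, and Sat1, Smox and Paox break the longer polyamines down. Odc1 is among the earliest described target genes of Myc, a transcription factor that pairs with Max and binds the E-box letters CACGTG, while Mlx pairs with MondoA or ChREBP at related sites.

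The 4 synthesis genes are shown first with the E-box letters that lie close to their start, because both deleted factors belong to the family that reads them. CACGTG reads the same on both strands. In the 300 bases around each start (250 before and 50 after) that RefSeq gives for 8 of the 10 genes on GRCm38.p6, only Sms held the letters, once, 196 bases before one of its 2 listed starts, whereas 7.15% of 32851 such promoters held them at least once. Within the first 1500 transcribed bases on GRCm39, a window chosen after the data were seen, Srm held 4 copies, Odc1 2, and Sms, Amd1, Paox and Azin1 1 each. Sat1, Smox, Oaz1 and Oaz2 held none. Over 21770 protein-coding genes, 19.88% held at least 1 copy in that window and 3.027% held 2 or more. The copies of Odc1, Srm, Sms and Amd1 fell in introns of the canonical GENCODE transcript, those of Paox and Azin1 in exons of it, and some intronic copies overlapped exons of other transcripts. The 9 copies of the synthesis genes are printed on the strand of the gene, with the motif in capitals.
Odc1 (chr12:17595187-17595216, plus strand): gggatgtgcggcCACGTGtcgcgaggcccg
Odc1 (chr12:17595227-17595256, plus strand): gccggcaggggaCACGTGgcccgggaccgg
Srm (chr4:148676294-148676323, plus strand): cggccctgcgtcCACGTGtcactatcggga
Srm (chr4:148676352-148676381, plus strand): acccagcccccaCACGTGgctcgcctgcca
Srm (chr4:148676368-148676397, plus strand): tggctcgcctgcCACGTGtcaccccgaatg
Srm (chr4:148676410-148676439, plus strand): ccccatggcggcCACGTGcacgcccaggga
Sms (chrX:156273789-156273818, minus strand): ctattaatggaaCACGTGgattccactctg
Amd1 (chr10:40176761-40176790, minus strand): aatcccagcggcCACGTGctgccgagactt
Sms promoter (GRCm38.p6, chrX:157492466-157492495, minus strand): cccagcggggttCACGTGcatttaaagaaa
A match is only a match of letters, and no binding was measured here.

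The 24 libraries held 15986856 to 20966163 reads on genes. Of the 41710 genes, 13101 passed the filter on low values in primary and 12880 in immortalized MEFs, and all 10 polyamine genes passed in both. The targeted genes followed the labels: primary Myc levels in CPM (read counts scaled to a common library size) were 89.8 to 100.1 in WT and 85.6 to 89.6 in MlxKO but 25.8 to 26.8 in MycKO and 19.9 to 22.9 in DKO, and primary Mlx CPM were 20.5 to 26.0 in WT against 13.0 to 13.97 in MlxKO and 9.73 to 12.0 in DKO. In immortalized MEFs Myc was 9.96 to 17.2 CPM in MycKO and 4.25 to 8.02 CPM in DKO. Immortalized Mlx was 12.1 to 17.0 CPM in MlxKO and 14.5 to 18.0 CPM in DKO, against 20.5 to 25.1 CPM in WT and 22.4 to 27.8 CPM in MycKO. The Mlx reads were thus lower without overlap, but much of their level remained. The paper reports efficient excision of each target gene, with comparable loss of its protein. The LoxP sites flank only some exons of each gene, so reads from its other exons could remain. The source of the remaining reads was not tested. One immortalized library, WT4, stood apart from the other WT libraries (r = 0.943 and 0.950 on log2 values, against 0.983 to 0.996 for other pairs of 1 group) and carried 177 Myc CPM where WT2 and WT3 carried 48.1 and 39.9. The immortalized differences from WT that turn on WT4 are therefore given with and without it. All 8 fibroblast markers were above 1 CPM in all libraries. In primary MEFs the 8 macrophage markers summed to 132 to 251 CPM in WT, 149 to 175 in MlxKO, 21.0 to 26.2 in MycKO and 46.0 to 88.8 in DKO, while in immortalized MEFs they summed to 5.74 to 12.2 CPM with Adgre1 and Tyrobp at 0 throughout. The 4 epithelial markers summed to 16.1 to 19.3 CPM in primary WT and to 1.497 to 4.36 CPM in the primary knockouts. In immortalized MEFs the 4 skeletal muscle markers summed to 13.1 to 22.7 CPM in WT, 9.49 to 10.4 in MlxKO, 191 to 231 in MycKO and 85.6 to 91.0 in DKO. Against immortalized WT, 3 of the 8 fibroblast markers were higher and 2 lower in MycKO, 3 were higher in MlxKO, and 1 was higher and 1 lower in DKO. The part of these markers in the immortalized results was not tested. These are bulk libraries, so fewer cells of a type and less RNA per cell cannot be told apart.

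Levels between the genes were compared per kilobase of the canonical transcript, using the authors' CPM. In primary WT cells Oaz1 was highest at 199 ± 9.5 CPM per kb (SD, n = 3), followed by Srm at 115 ± 1.5, Odc1 at 98.8 ± 1.7 and Sat1 at 73.5 ± 9.7. Oaz2 at 34.3 ± 3.0 and Amd1 at 33.1 ± 1.5 overlapped, and Azin1 at 19.98 ± 0.66, Sms at 6.97 ± 0.67, Smox at 3.48 ± 0.38 and Paox at 1.83 ± 0.20 followed with no overlap between neighbours. In immortalized WT cells Oaz1 was again highest at 381 ± 59 CPM per kb and stood clear of the rest, whereas the neighbours from Srm at 114 ± 65 through Odc1, Sat1, Amd1 and Azin1 down to Oaz2 at 32.9 ± 5.5 overlapped one another. The lowest pair, Smox at 2.75 ± 0.40 and Paox at 2.31 ± 0.83 CPM per kb, also overlapped. The 2 tables were normalized separately, so no level was compared between primary and immortalized cells.

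In primary MEFs the 4 synthesis genes were lower in MycKO than in WT. The paper describes primary MycKO and DKO cells as growth-arrested, whereas WT and MlxKO cells grew. Myc loss and growth arrest therefore cannot be told apart in primary cells. It reports that all immortalized lines grew, and that most immortalized MycKO cells were tetraploid or pseudo-tetraploid. The part of growth state or ploidy in the results was not tested. Odc1 was 227, 233 and 226 CPM in WT and 199, 188 and 193 CPM in MycKO. All 3 MycKO libraries lay below all WT libraries, and Odc1 fell by 0.24 ± 0.06 on the log2(CPM + 1) scale (SE, n = 3, limma adjusted p = 0.0044). Srm, the spermidine synthase, was 158, 155 and 154 CPM in WT and 80.0, 78.9 and 80.2 CPM in MycKO. The lowest WT library lay far above the highest MycKO library, and Srm fell by 0.96 ± 0.06 (adjusted p = 5.3e-09).
Sms, the spermine synthase, was 26.0, 28.5 and 23.5 CPM in WT and 13.0, 12.8 and 11.8 CPM in MycKO. Its libraries did not overlap either, and it fell by 1.00 ± 0.10 (adjusted p = 8.2e-07), a 1.99-fold difference. Amd1 was 124, 125 and 135 CPM in WT and 69.8, 89.0 and 71.5 CPM in MycKO. MycKO10 was the highest of the knockouts but remained below every WT library, and Amd1 fell by 0.74 ± 0.10 (adjusted p = 2.2e-05). Odc1 therefore changed least of the synthesis genes on the log2 scale, by 1.18-fold against 1.66-fold for Amd1, 1.94-fold for Srm and 1.99-fold for Sms.

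With both Myc and Mlx removed, the same synthesis genes were lower than in WT. Odc1 was 175, 162 and 155 CPM in DKO, a fall of 0.48 ± 0.06 from WT (adjusted p = 6.9e-06). Srm was 71.8, 70.0 and 67.0 CPM and fell by 1.15 ± 0.06 (adjusted p = 3.8e-10). Sms was 12.1, 12.6 and 11.4 CPM and fell by 1.05 ± 0.10 (adjusted p = 3.1e-07). Amd1 was 63.7, 62.4 and 52.1 CPM and fell by 1.098 ± 0.10 (adjusted p = 2.2e-07). For each of these genes all DKO libraries lay below all WT libraries. The macrophage markers moved with these differences (8 of 8 lower in MycKO and in DKO), and of the 8 fibroblast markers 7 were higher in MycKO, and 5 were higher and 2 lower in DKO. The 2 epithelial markers and the 1 endothelial marker that could be tested, of 4 each, were lower in MycKO and DKO but also in MlxKO. The 4 endothelial markers summed to 12.9 to 13.1 CPM in WT, 2.56 to 3.29 in MlxKO, 4.21 to 6.34 in MycKO and 3.05 to 3.43 in DKO. The 4 skeletal muscle markers summed to 123 to 138 CPM in WT, 64.9 to 70.7 in MlxKO, 79.2 to 80.8 in MycKO and 119 to 130 in DKO. The part of these markers in the result was not tested.

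**Figure D1:**
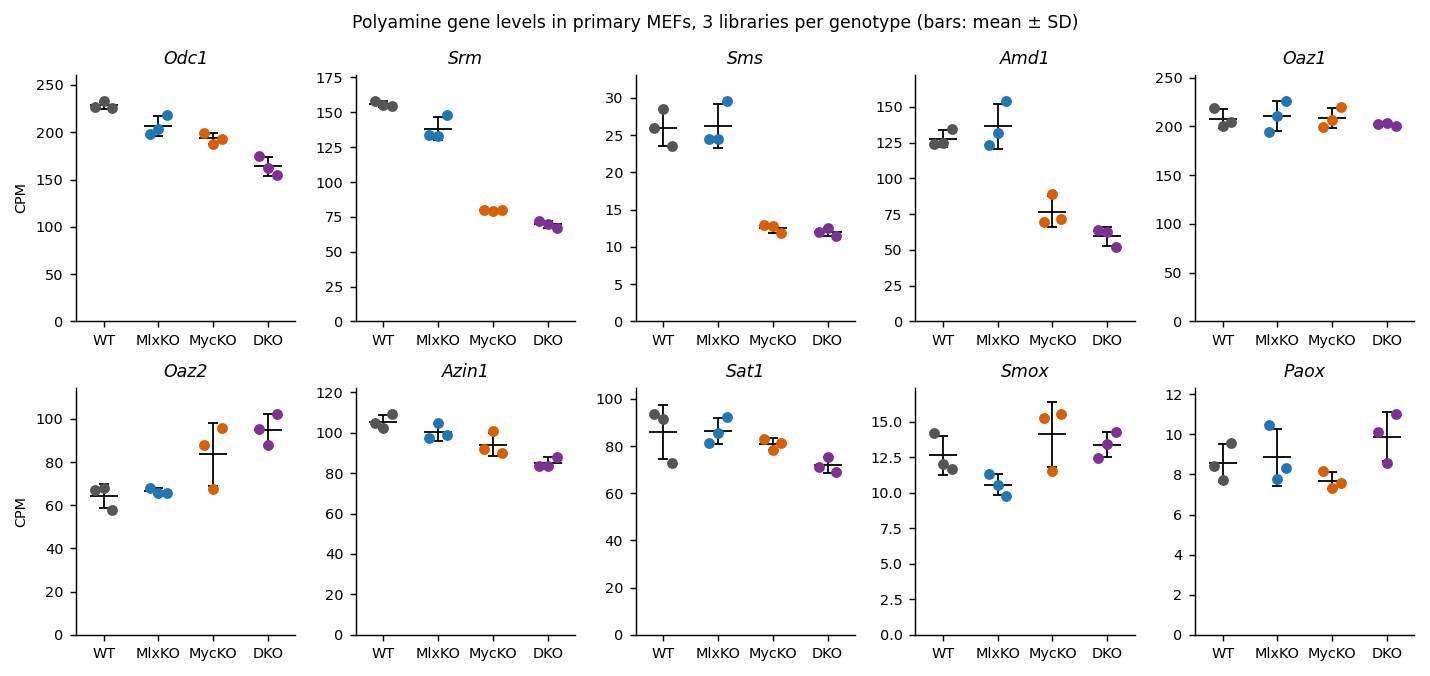
Levels of the 10 polyamine genes in primary MEFs, in CPM on a linear axis from 0, with 1 point per library and bars for the mean and SD of 3 libraries. The MycKO and DKO points of Odc1, Srm, Sms and Amd1 sit below all WT points, while those of Oaz1 (199 to 220 CPM) overlap the WT points (201 to 219 CPM).

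The transcripts of the regulators of Odc1 protein moved in different directions. Oaz1, the main antizyme, was 219, 201 and 204 CPM in WT, 199, 206 and 220 CPM in MycKO and 203, 204 and 200.4 CPM in DKO. These groups overlapped, and the 95% intervals of the difference ran from -0.13 to 0.14 for MycKO and from -0.18 to 0.10 for DKO. Oaz2 was 66.9, 68.2 and 57.9 CPM in WT, 87.7, 67.5 and 95.8 CPM in MycKO and 95.1, 87.9 and 102 CPM in DKO. It rose by 0.36 ± 0.10 in MycKO (adjusted p = 0.0097), where MycKO10 overlapped WT, and by 0.56 ± 0.10 in DKO (adjusted p = 0.00031), where no library overlapped. The MycKO difference was 0.26 and did not pass without MycKO11 (adjusted p = 0.062) or with scaling to library totals (adjusted p = 0.057). Azin1, the antizyme inhibitor, was 105, 102 and 109 CPM in WT, 91.9, 100.7 and 89.9 CPM in MycKO and 83.6, 83.6 and 88.2 CPM in DKO. It fell by 0.31 ± 0.06 in DKO (adjusted p = 0.00074), whereas its fall of 0.16 ± 0.06 in MycKO (adjusted p = 0.048) was lost under 10 of the alternatives, with adjusted p of 0.060 by edgeR, 0.052 by DESeq2 and 0.061 to 0.17 without WT1, WT2, WT3, MycKO9 or MycKO11 in turn.

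Of the catabolic genes, Sat1 was the one that passed against WT in primary MEFs, in DKO. Sat1, which acetylates spermidine and spermine, was 93.5, 91.5 and 72.9 CPM in WT, 83.2, 78.2 and 81.4 CPM in MycKO and 71.3, 75.5 and 69.2 CPM in DKO. WT3 lay among the DKO libraries, and the DKO fall of 0.24 ± 0.08 (adjusted p = 0.025) did not pass without WT1, WT2, DKO13 or DKO15 in turn (differences of -0.24 to -0.18, adjusted p from 0.067 to 0.13). Smox, the spermine oxidase, was 11.7 to 14.2 CPM in WT, 11.5 to 15.5 in MycKO and 12.5 to 14.3 in DKO. Paox, the oxidase of acetylated polyamines, was 7.71 to 9.58 CPM in WT, 7.33 to 8.15 in MycKO and 8.56 to 11 in DKO. Neither passed the test in either comparison, with adjusted p from 0.25 to 0.60. Paox overlaps Echs1 in the annotation, and its lowest library rested on 112 reads.

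In all, 5 of the 10 genes passed as lower and 1 as higher in primary MycKO against WT, where 42.3% of the genes tested passed in either direction (21.9% lower and 20.4% higher), and in 5 of the 10 the libraries did not overlap, as in 48.1% of all genes. In DKO against WT 6 were lower and 1 higher, where 49.5% of all genes passed (25.5% lower and 24% higher), and 6 did not overlap, as in 60.8% of all genes. The median difference of the 10 genes was -0.15 and -0.27, beside 0.00 for all genes tested in both comparisons. When libraries were scaled to their totals instead, the median of all genes in primary cells moved to -0.09 in MycKO and -0.08 in DKO.

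Removal of Mlx alone left no polyamine gene past the threshold in primary MEFs with limma, where 8.88% of all genes passed (3.75% higher and 5.14% lower), and 3 of the 10 had libraries that did not overlap with WT, as in 28.3% of all genes. By an unadjusted p under 0.05 it was 2 genes, Odc1 and Srm, by edgeR 0 and by DESeq2 1, Srm. Srm was 134, 133 and 148 CPM in MlxKO, below all WT libraries, with a difference of -0.17 ± 0.06 (adjusted p = 0.077), which passed without MlxKO7 (-0.22, adjusted p = 0.036). Odc1 was 198, 204 and 218 CPM, also below all WT libraries, with a difference of -0.14 ± 0.06 (adjusted p = 0.15). The 95% intervals for Sms (-0.20 to 0.22) and Amd1 (-0.13 to 0.30) excluded falls of the size seen in MycKO. In DKO against MycKO 3 genes passed as lower, where 21.5% of all genes passed (11% as lower and 10.6% as higher). Odc1 was lower by 0.24 ± 0.06 (adjusted p = 0.0088), Srm by 0.19 ± 0.06 (adjusted p = 0.026) and Amd1 by 0.36 ± 0.10 (adjusted p = 0.016). In 6 of the 10 genes the libraries did not overlap, as in 36.9% of all genes. None of the 3 passed without DKO15, where the falls were 0.20, 0.17 and 0.27 (adjusted p = 0.061, 0.12 and 0.10), and that of Srm also missed the threshold without MycKO9, MycKO11 or DKO14 (adjusted p of 0.066 to 0.069). An interaction term set the effect of Mlx loss without Myc against that with Myc, and it passed for Amd1 only (-0.45 ± 0.14, adjusted p = 0.047, with 13.5% of all genes passing, 7.47% as higher and 6.07% as lower). That call was lost under 11 of the alternatives, with edgeR and without WT1, WT2, MlxKO6, MlxKO7, MycKO10, DKO14 or DKO15 in turn (values of -0.49 to -0.34, adjusted p from 0.050 to 0.14).

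The other comparison between primary knockouts, DKO against MlxKO, passed for 8 of the 10 genes, with 49.1% of all genes passing (23.3% higher and 25.9% lower). In 8 the libraries did not overlap, as in 60.9% of all genes. Amd1 fell by 1.19 ± 0.10, Sms by 1.06 ± 0.10, Srm by 0.98 ± 0.06, Odc1 by 0.33 ± 0.06, Sat1 by 0.26 ± 0.08 and Azin1 by 0.23 ± 0.06. Oaz2 rose by 0.51 ± 0.10 and Smox by 0.32 ± 0.12. The adjusted p ranged from 1.0e-07 for Amd1 to 0.038 for Smox. The calls of Sat1 and Smox depended on single libraries: that of Sat1 was lost without MlxKO7, DKO13 or DKO15 (adjusted p up to 0.082) and that of Smox without MlxKO6, MlxKO7, DKO14 or DKO15 (adjusted p up to 0.13) and with library totals (adjusted p = 0.16). Oaz1 and Paox did not pass, with adjusted p of 0.50 and 0.36, though Oaz1 did with library totals (-0.17, adjusted p = 0.038).

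In immortalized MEFs Odc1 had its highest mean in DKO, and Amd1 was the synthesis gene that fell in every knockout. Odc1 was 208, 210.0 and 295 CPM in WT2, WT3 and WT4, 192, 210.4 and 209 CPM in MlxKO, 258, 222 and 239 CPM in MycKO and 287, 306 and 315 CPM in DKO. The DKO libraries were above WT2, WT3 and every MlxKO and MycKO library, and WT4 lay among them. Against all WT libraries the DKO difference was 0.37 ± 0.13 (adjusted p = 0.071), and without WT4 Odc1 rose by 0.53 ± 0.10 (adjusted p = 0.0019). In MycKO the difference was 0.03 ± 0.13 with WT4 and 0.19 ± 0.10 without it (adjusted p = 0.88 and 0.12), with an interval of -0.26 to 0.31 in the first case. A fall as large as that of primary MycKO cells (-0.24) lay inside the interval with WT4 and outside it without WT4, where the interval ran from -0.02 to 0.41.

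Srm showed the widest WT group, with 104 and 105 CPM in WT2 and WT3 and 256 CPM in WT4. It was 120, 144 and 134 CPM in MlxKO, 92.0, 87.6 and 93.4 CPM in MycKO and 80.2, 83.9 and 87.0 CPM in DKO. The MycKO and DKO libraries all lay below all WT libraries, yet the differences of -0.63 ± 0.26 and -0.75 ± 0.26 did not pass with limma (adjusted p = 0.065 and 0.064), though they did with edgeR (adjusted p = 0.038 and 0.044) and DESeq2 (adjusted p = 0.014 and 0.0093) and without WT2 or WT3. Without WT4 they were -0.20 ± 0.10 (adjusted p = 0.11) and -0.32 ± 0.10 (adjusted p = 0.037), so Srm fell in DKO on that comparison, and in MlxKO it rose by 0.34 ± 0.10 (adjusted p = 0.014), where the difference with WT4 was -0.09 ± 0.26. Sms was 39.4, 33.7 and 60.0 CPM in WT2, WT3 and WT4, 39.3 to 49.5 in MlxKO, 34.4 to 53.1 in MycKO and 26.3 to 38.4 in DKO. Each knockout overlapped WT, and Sms passed in no knockout against WT with or without WT4 (adjusted p from 0.17 to 0.97).

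Amd1 was lower than WT in every immortalized knockout. It was 174, 150 and 257 CPM in WT2, WT3 and WT4, 123, 90.8 and 109 CPM in MlxKO, 122, 110.2 and 114 CPM in MycKO and 92.5, 115 and 123 CPM in DKO. All 9 knockout libraries lay below all WT libraries. Amd1 fell by 0.70 ± 0.18 in MycKO (adjusted p = 0.0079), by 0.81 ± 0.18 in MlxKO (adjusted p = 0.0053) and by 0.78 ± 0.18 in DKO (adjusted p = 0.013). Without WT4 it fell by 0.48 ± 0.14, 0.59 ± 0.14 and 0.55 ± 0.14 (adjusted p = 0.012, 0.0046 and 0.014). The DKO fall was 0.66 without DKO13 and did not pass (adjusted p = 0.066), nor did the DKO call hold with only the groups compared (adjusted p = 0.074). Reads of Amd1 could be shared with the near-identical Amd2, since 44.3% of its 50-base stretches also occur there, but Amd2 itself was at most 3.74 CPM in primary and 4.38 CPM in immortalized MEFs. Processed pseudogenes of Amd1, Oaz1, Sms and Paox share up to 20.7% of such stretches.

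**Figure D2:**
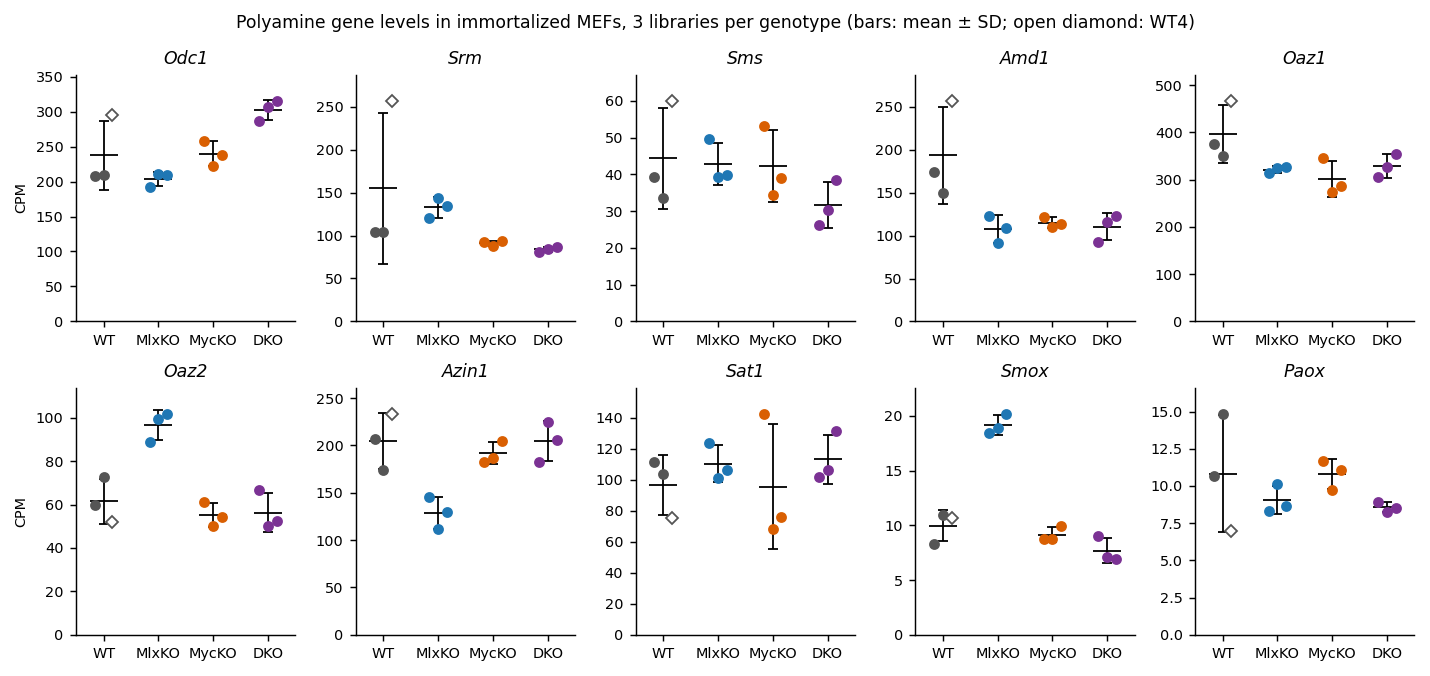
Levels of the 10 polyamine genes in immortalized MEFs, in CPM on a linear axis from 0, with 1 point per library, bars for the mean and SD of 3 libraries and WT4 as an open diamond. WT4 is the highest WT point for Odc1, Srm, Sms, Amd1, Oaz1 and Azin1, and the MlxKO points of Smox (18.4 to 20.2 CPM) and Oaz2 (89.0 to 102 CPM) sit above those of the other genotypes.

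Loss of Mlx alone set 3 other genes apart in immortalized MEFs. Smox was 18.4, 18.9 and 20.2 CPM in MlxKO against 8.32, 10.9 and 10.7 CPM in WT, and it was 8.74 to 9.96 CPM in MycKO and 6.96 to 8.99 CPM in DKO. It rose by 0.88 ± 0.15 in MlxKO (adjusted p = 0.0011), or by 0.94 ± 0.15 without WT4 (adjusted p = 0.00032). Oaz2 was 89.0, 99.4 and 102 CPM in MlxKO against 60.0, 72.6 and 52.1 CPM in WT, with 50.2 to 61.1 CPM in MycKO and 50.1 to 66.5 CPM in DKO. It rose by 0.65 ± 0.14 (adjusted p = 0.0045), or by 0.54 ± 0.14 without WT4 (adjusted p = 0.0063). Azin1 moved the other way, with 146, 112 and 129 CPM in MlxKO against 206, 174 and 233 CPM in WT, 183 to 205 CPM in MycKO and 182 to 225 CPM in DKO. It fell by 0.66 ± 0.13 (adjusted p = 0.0031), or by 0.56 ± 0.13 without WT4 (adjusted p = 0.0036). In all 3 genes the MlxKO libraries overlapped no library of another genotype. Scaled to library totals, the median of all genes in this comparison moved from 0.01 to 0.16, and these 3 genes kept their directions and calls.

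Oaz1 was 376, 349 and 466 CPM in WT, 274 to 345 CPM in MycKO, 313 to 326 CPM in MlxKO and 306 to 355 CPM in DKO. It fell by 0.39 ± 0.13 in MycKO (adjusted p = 0.024), a call lost without WT4 (-0.27 ± 0.11, adjusted p = 0.061) and without MycKO10 or MycKO11 (adjusted p = 0.090 and 0.079). That call was also lost with only the groups compared (adjusted p = 0.10). In MlxKO, where no library overlapped WT, Oaz1 differed by -0.30 ± 0.13 (adjusted p = 0.084), which passed without WT3 (-0.38, adjusted p = 0.042). Sat1 spread widely, with 75.1 to 112 CPM in WT, 101 to 124 in MlxKO, 68.4 to 142 in MycKO and 102 to 131 in DKO, and passed in no comparison with WT. MycKO9 held the 142 CPM, while the other MycKO libraries held 68.4 and 76.3, and without MycKO9 Sat1 was higher in DKO than in MycKO by 0.63 (adjusted p = 0.021). Paox was 10.7, 14.8 and 6.9995 CPM in WT2, WT3 and WT4 and 8.26 to 11.7 CPM in the knockouts. It passed in no comparison with all libraries, and without WT4 it fell by 0.44 ± 0.16 in MlxKO and by 0.51 ± 0.16 in DKO (adjusted p = 0.034 and 0.033).

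Of the 10 genes, 2 passed in immortalized MycKO against WT (both lower, with 48% of all genes passing, 23.5% as lower and 24.4% as higher), 4 in MlxKO (2 higher and 2 lower, with 38.9% of all genes, 19.1% as higher and 19.9% as lower) and 1 in DKO (lower, with 18.9% of all genes, 8.51% as lower and 10.4% as higher). The libraries did not overlap with WT in 3, 5 and 2 of the 10 genes, as in 51.1%, 49.1% and 37.1% of all genes. Without WT4 the counts were 1 (54% of all genes), 6 (46.8%) and 4 (22%). The 10 genes had a median difference of -0.10 in MycKO, -0.14 with Mlx removed and -0.26 in DKO, beside 0.00, 0.01 and -0.01 for all genes tested. Without WT4 their median was -0.20, -0.0037 and -0.22.

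**Figure D3:**
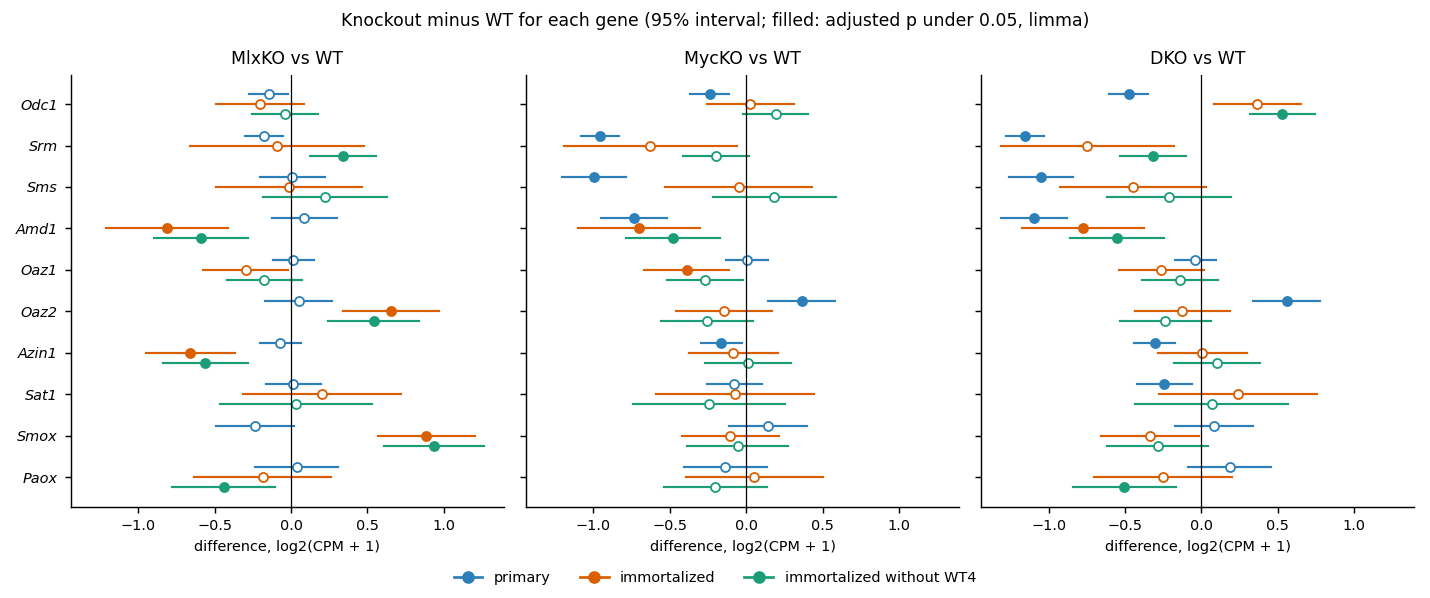
Differences of each knockout from WT on the log2(CPM + 1) scale for the 10 genes, with 95% intervals, filled where the adjusted p from limma was under 0.05. The primary values of Srm, Sms and Amd1 lie between -1.15 and -0.74 in MycKO and DKO, the immortalized intervals are wider, and Odc1 in DKO lies below 0 in primary (-0.48) and above it in immortalized MEFs (0.37, or 0.53 without WT4).

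The immortalized DKO libraries were also set against the other knockouts, where WT libraries entered only the shared estimate of spread. Against MlxKO the immortalized DKO libraries were higher for Odc1 by 0.57 ± 0.13 (adjusted p = 0.0071) and Azin1 by 0.66 ± 0.13 (adjusted p = 0.0034), and lower for Smox by 1.22 ± 0.15 (adjusted p = 0.00011) and Oaz2 by 0.78 ± 0.14 (adjusted p = 0.0020), with 30.1% of all genes passing (16.3% higher and 13.9% lower) and 54.4% with no overlap. Srm differed by -0.65 ± 0.26 (adjusted p = 0.076), which became -0.65 ± 0.09 (adjusted p = 6.0e-05) once WT4 no longer entered the shared estimate of spread (43.2% of all genes passing). The DKO libraries of Sms lay below those of MlxKO, with a difference of -0.43 ± 0.22 that did not pass (adjusted p = 0.16), though it did with only the groups compared (adjusted p = 0.031) and with library totals (-0.60, adjusted p = 0.047). None of the 10 genes passed in DKO against MycKO with limma, edgeR or DESeq2, where 29.4% of all genes passed with limma (14.8% higher and 14.6% lower) and 49.7% had no overlap, and 1 gene, Odc1, had an unadjusted p under 0.05. Its libraries did not overlap (0.34 ± 0.13, adjusted p = 0.073), and it passed with WT4 left out of the spread (0.34 ± 0.09, adjusted p = 0.0079, with 40.9% of all genes passing).

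The interaction in immortalized MEFs, the effect of Mlx loss without Myc minus that with Myc, passed for 5 of the 10 genes, where 47.4% of all genes passed (23.7% higher and 23.8% lower). It was positive for Azin1 (0.75 ± 0.19, adjusted p = 0.0067), Amd1 (0.74 ± 0.26, adjusted p = 0.034) and Odc1 (0.54 ± 0.19, adjusted p = 0.031), and negative for Smox (-1.12 ± 0.21, adjusted p = 0.0011) and Oaz2 (-0.63 ± 0.20, adjusted p = 0.023). Without WT4 the same 5 genes passed, with 0.65, 0.52, 0.38, -1.17 and -0.52, and Srm joined them at -0.46 ± 0.14 (adjusted p = 0.011), where 56.7% of all genes passed. Scaling to library totals moved the median of all genes here from -0.01 to -0.18. With that scaling Odc1 was 0.36 and Amd1 0.56, both still positive, and neither passed (adjusted p = 0.095 and 0.072). Leaving out single MlxKO, MycKO or DKO libraries also ended the calls of Odc1, Amd1 and Oaz2 (adjusted p of 0.051 to 0.089), with values of 0.49 to 0.56, 0.62 to 0.76 and -0.61 to -0.56, whereas Smox and Azin1 passed under every alternative. In primary MEFs the only gene that passed this test, Amd1, had the opposite sign (-0.45).

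Myc reads and the synthesis genes were set side by side in each library. Among primary libraries, Srm, Sms and Amd1 formed a low group where Myc was 19.9 to 26.8 CPM and a high group where Myc was 85.6 to 100.1 CPM, with no library between. In immortalized MEFs Srm was lowest, at 80.2 to 93.4 CPM, in the 6 libraries with 4.25 to 17.2 Myc CPM. It was 104 and 105 CPM in WT2 and WT3 (48.1 and 39.9 Myc CPM), 120 to 144 CPM in MlxKO (72.4 to 82.8 Myc CPM) and 256 CPM in WT4 (177 Myc CPM). This order held between these sets of libraries but not within DKO. There DKO13 held 8.02 Myc CPM and 80.2 Srm CPM, and DKO15 held 4.25 and 87.0 CPM. Odc1 did not follow the order between sets, since the DKO libraries with the lowest Myc values held 287 to 315 CPM. Amd1 did not either, at 90.8 to 123 CPM in MlxKO against 174 and 150 CPM in WT2 and WT3, which held less Myc. Sms overlapped between genotypes, with 53.1 CPM in MycKO9 (17.2 Myc CPM) and 39.3 CPM in MlxKO6 (82.8 Myc CPM). WT4 held 4.04 times the mean Myc of WT2 and WT3, together with 2.45 times their Srm, 1.64 times their Sms, 1.59 times their Amd1 and 1.41 times their Odc1. No correlation was computed, as the libraries fall into separate groups.

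**Figure D4:**
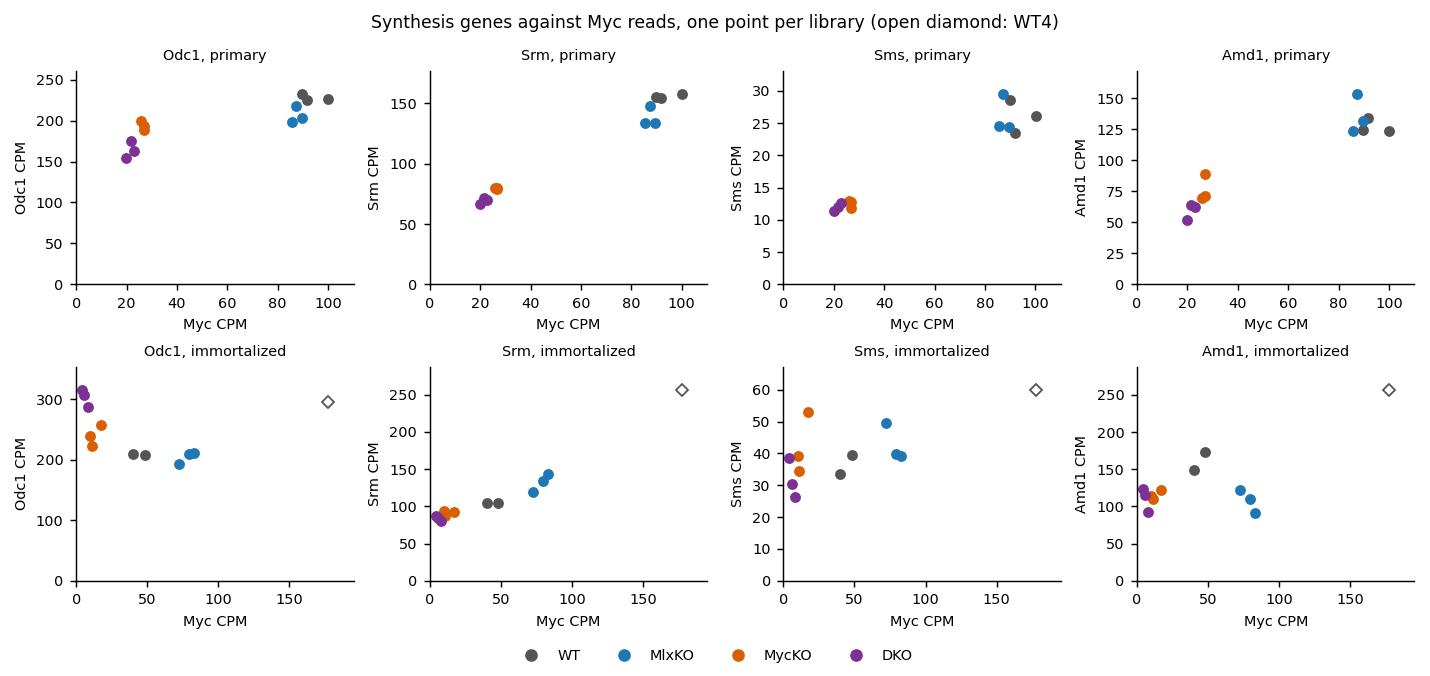
CPM of Odc1, Srm, Sms and Amd1 against CPM of Myc in primary (top) and immortalized MEFs (bottom), with 1 point per library on linear axes from 0 and WT4 as an open diamond. Immortalized Srm is lowest, at 80.2 to 93.4 CPM, in MycKO and DKO and highest, at 256 CPM, in WT4. Immortalized Odc1 is high, at 287 to 315 CPM, in the DKO libraries with the least Myc. The immortalized MlxKO points of Amd1 sit below those of WT2 and WT3, which hold less Myc, and Sms overlaps between genotypes.

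Ratios formed within a library do not depend on its scaling. They are ratios of RNA levels, and the balance of the proteins was not measured. Odc1 to Oaz1, the transcript of the enzyme against that of its main antizyme, was 1.03, 1.16 and 1.103 in primary WT, 1.02, 0.965 and 0.964 in MlxKO, 1.00, 0.910 and 0.877 in MycKO and 0.863, 0.798 and 0.771 in DKO. All primary knockout libraries lay below all WT libraries. In immortalized MEFs the same ratio was 0.554, 0.601 and 0.632 in WT, 0.613, 0.650 and 0.641 in MlxKO, 0.748, 0.810 and 0.833 in MycKO and 0.938, 0.937 and 0.888 in DKO. Here MycKO and DKO lay above all WT libraries, WT4 included. The mean difference in DKO was -0.44 in primary and 0.63 in immortalized MEFs on the log2 scale, each with an exact permutation p of 0.1, the smallest that 3 against 3 libraries allow.
Odc1 to Azin1 did not separate the primary genotypes, with 2.07 to 2.28 in WT and 1.75 to 2.21 in the knockouts, but in immortalized MEFs it was 1.32 to 1.88 in MlxKO and 1.36 to 1.57 in DKO against 1.01 to 1.27 in WT. Srm to Sms stayed between 4.99 and 6.80 in all primary libraries, with a log2 difference from WT of 0.08 in MycKO and -0.05 in DKO (exact permutation p = 0.4 and 0.5). In immortalized MycKO it was 1.73 to 2.55 against 2.65 to 4.28 in WT. Sat1 to Odc1 was 0.323 to 0.412 in primary WT and 0.407 to 0.465 in the knockouts, and in immortalized MEFs WT alone ran from 0.255 (WT4) to 0.535. None of the 24 ratio comparisons passed after adjustment, for which the smallest exact permutation value was 0.267 (Benjamini-Hochberg).

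**Figure D5:**
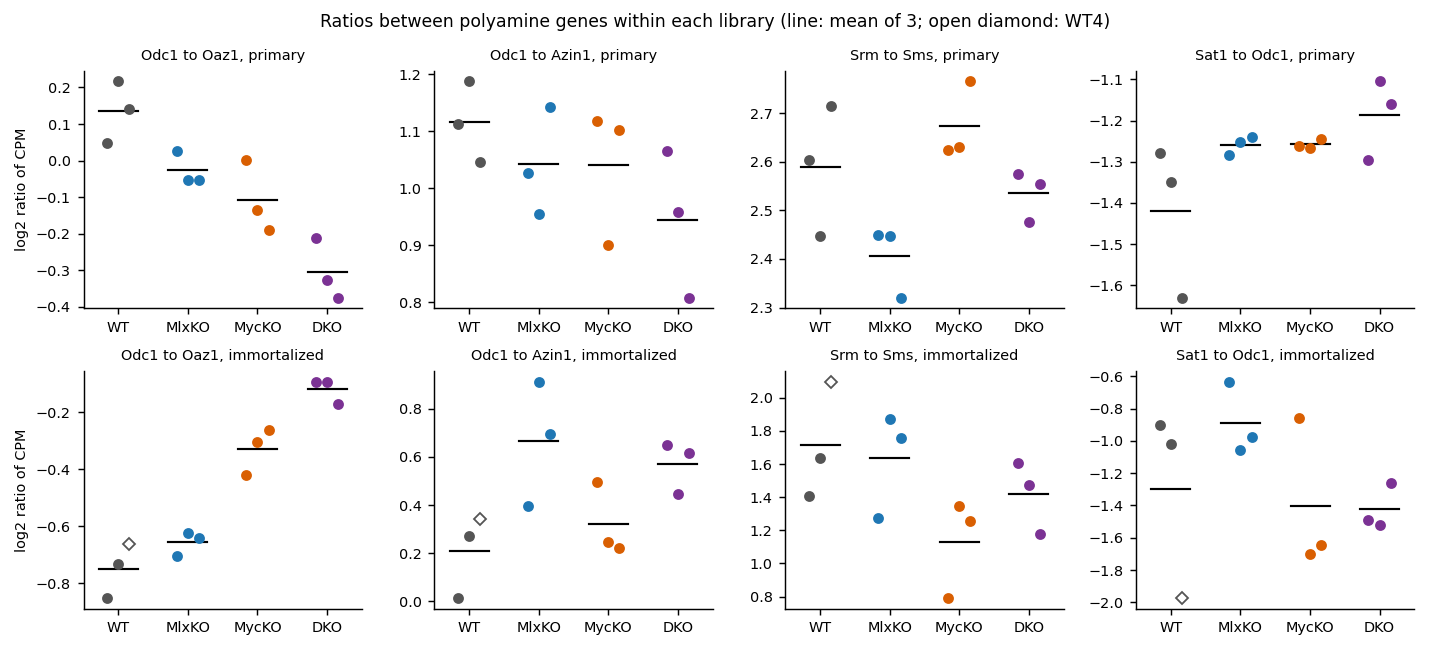
Ratios of CPM between pairs of polyamine genes within each library, on a log2 axis, with a line at the mean of 3 libraries and WT4 as an open diamond. Odc1 to Oaz1 declines from WT to DKO in primary MEFs (1.03 to 1.16 against 0.771 to 0.863) and climbs in immortalized MEFs (0.554 to 0.632 against 0.888 to 0.938).

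Beyond these 10 genes, a list of 33 genes covered ornithine supply, methionine and methylthioadenosine salvage, further family members, hypusine formation on Eif5a, and transport. Of these, 21 were tested in each table. In primary MEFs 8 were lower and 2 higher in MycKO (42.3% of all genes passing), 1 was lower in MlxKO (8.88%), and 7 were lower and 4 higher in DKO (49.5%). In immortalized MEFs 6 were lower and 4 higher in MycKO (48% of all genes), 6 lower and 2 higher in MlxKO (38.9%), and 1 lower in DKO (18.9%). Without WT4 it was 7 lower and 5 higher in MycKO (54%), 6 lower and 4 higher in MlxKO (46.8%), and 1 lower and 1 higher in DKO (22%). In primary MEFs 2 of the 4 hypusine genes tested were lower in MycKO and 1 in DKO. Of 3 ornithine supply genes, 1 was lower and 1 higher in each. Of 3 further family members, 1 was lower and 1 higher in MycKO, and 2 were higher in DKO. Of 4 transport genes, none passed in MycKO and 1 was higher in DKO. Of the 7 methionine and salvage genes tested, 4 were lower in primary MycKO and 5 in primary DKO, where 21.9% and 25.5% of all genes were lower. In immortalized MycKO, MlxKO and DKO it was 3, 2 and 1 (23.5%, 19.9% and 8.51% of all genes). With all libraries none of the 7 passed as higher against WT, and without WT4 1 did, Enoph1 in immortalized MycKO (0.34 ± 0.13, adjusted p = 0.037), a gene named here after its values were seen.
Mat2a, which makes S-adenosylmethionine, fell in primary DKO by 0.36 ± 0.07 (adjusted p = 0.00045) and in immortalized MycKO, MlxKO and DKO by 0.59, 0.53 and 0.37 ± 0.11 (adjusted p = 0.0011, 0.0036 and 0.037), the last not passing without WT4 (adjusted p = 0.071). Adi1, a salvage dioxygenase, fell by 0.43 ± 0.10 in primary MycKO and 0.44 ± 0.10 in primary DKO, and by 0.93 ± 0.19 in immortalized MycKO (adjusted p = 0.0018, 0.0012 and 0.0018). Azin2, a relative of Azin1, rose from 28.6 to 30.5 CPM in primary WT to 40.0 to 60.2 CPM in MycKO and 55.7 to 57.8 CPM in DKO, or by 0.78 ± 0.11 and 0.91 ± 0.11 (adjusted p = 4.0e-05 and 6.0e-06). In immortalized MycKO it rose by 0.78 ± 0.28 (adjusted p = 0.034), which did not pass without WT4 (0.43, adjusted p = 0.084).
Ass1, an enzyme of arginine synthesis, was 95.4, 94.7 and 98.1 CPM in primary DKO against 184 to 205 CPM in WT, 182 to 220 CPM in MycKO and 153 to 160 CPM in MlxKO. It fell by 1.03 ± 0.07 in DKO (adjusted p = 9.4e-09) and by 0.33 ± 0.07 in MlxKO (adjusted p = 0.0071), and differed by 0.06 ± 0.07 in MycKO (adjusted p = 0.56). Oat, which turns ornithine over, rose in primary MycKO by 0.15 ± 0.06 and in primary DKO by 0.33 ± 0.06 (adjusted p = 0.035 and 0.00012) and fell in immortalized MlxKO by 0.54 ± 0.09 (adjusted p = 0.0012). Slc18b1, a vesicular polyamine transporter, was 13.5 to 13.8 CPM in immortalized MlxKO and 14.2 to 17.9 CPM in MycKO against 24.9 to 27.9 CPM in WT and 26.9 to 27.9 CPM in DKO. It fell by 0.91 ± 0.12 and 0.66 ± 0.12 (adjusted p = 0.00030 and 0.00072). In primary DKO it rose by 0.26 ± 0.10 (adjusted p = 0.044).

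By the root mean square difference of the 3 knockout differences from WT, the genes most like Odc1 among 12401 compared were Zik1 (0.007), Nomo1 (0.012) and Rpl23 (0.014) in primary MEFs and Klhdc1 (0.023), Calu (0.023) and Ehd2 (0.040) in immortalized MEFs, all on the log2 scale. Over both tables together, 6 differences in all, they were Cep128 (0.069), Gm45902 (0.096) and Rexo5 (0.10).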

How the data were processed

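Poly-A RNA of primary and immortalized MEFs was sequenced from a directional kit, with 3 libraries for each of 4 genotypes in each cell type. The authors deposited 1 table of CPM for each cell type, after mapping with CLC Genomics Workbench to GRCm39. Whether the counting used strand is not given in the sources used here. The deposited CPM columns summed to 915691 to 1077213 rather than to a fixed total, so they were treated as a signal scaled by size factors, and 100% of values were whole multiples of 1 read within a tolerance of 0.05. Column headings gave the genotype but not the labelled replicate. Differences were tested with limma 3.58.1 (trended prior, 2-sided, all 12 libraries of a table in 1 fit) on log2(CPM + 1) for genes with at least 1 CPM in 3 libraries. This pseudocount understates the change of low genes. Benjamini-Hochberg adjustment ran over all genes tested, with 0.05 as threshold. The recovered reads were also tested with edgeR 4.0.16 (quasi-likelihood, TMM) and DESeq2 1.42.0. Other alternatives were a pseudocount of 0.1, no filter or a mean of 5 CPM, median-ratio scaling, library totals, a robust prior, only the groups compared, and each library left out in turn. The scripts were tested on simulated data. Ratios were tested by exact permutation. The study calls the primary libraries of a group biological replicates, but whether they came from separate cultures is not given in the sources used here. The p-values therefore measure the spread between these libraries, and libraries of 1 group differed by more than sampling noise. The paper pooled the embryos of each group of floxed mice, so the knockouts came from different pools. Genotype and embryo pool cannot be told apart, also between knockouts. The paper used a single WT line as control in most cases, and which line was sequenced is not given. The genes and lists were chosen with earlier results of these data known. The text names the 10 genes, Myc, Mlx, the pathway genes that passed in 3 or more of the 6 comparisons of a knockout with WT or differed by over 1 on the log2 scale, and the 3 genes most like Odc1. Places, lengths and motifs came from GRCm39 with GENCODE vM39 and from RefSeq promoters on GRCm38.p6. Promoters of Srm and Azin1 were not analysed here.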

Additional observations from a re-analysis of the deposited data

Results flagged for a closer look

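The interaction test in limma set the response to Mlx loss in cells without Myc against that in cells with Myc. In primary MEFs 1 of the 10 genes passed, Amd1 (-0.45), beside 13.5% of all genes. In immortalized MEFs 5 of the 10 passed, beside 47.4% of all genes. They were Odc1 (0.54), Amd1 (0.74), Smox (-1.12), Oaz2 (-0.63) and Azin1 (0.75). The call of primary Amd1 was lost under 11 alternatives, those of immortalized Odc1 and Amd1 under 8 each and that of Oaz2 under 4. Each value is the log2 effect of Mlx loss without Myc minus that with Myc.

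For Odc1, Smox, Oaz2, Azin1 and Paox the libraries of some comparisons moved one way in primary and the opposite way in immortalized MEFs, a difference between the cell types that was not tested. In each comparison listed here the libraries did not overlap in either cell type. Odc1 in DKO against WT also differed in sign (-0.48 and 0.37), but its immortalized libraries overlapped. Smox in MlxKO against WT was -0.24 in primary and 0.88 in immortalized MEFs, and in DKO against MlxKO it was 0.32 and -1.22. Odc1 was -0.24 and 0.34 in DKO against MycKO, and -0.33 and 0.57 in DKO against MlxKO. Paox was 0.32 and -0.30 in DKO against MycKO, of which neither passed the test. Primary Smox in MlxKO against WT and immortalized Odc1 in DKO against MycKO did not pass either (limma adjusted p = 0.25 and 0.073). The call of primary Smox in DKO against MlxKO was lost under 6 alternatives. Oaz2 was 0.51 and -0.78, and Azin1 -0.23 and 0.66, in DKO against MlxKO. The comparisons with DKO share the DKO libraries, and those with MlxKO share the MlxKO libraries.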

How the results depend on the processing

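Of 41 gene and comparison pairs that passed with limma, 27 kept their direction and stayed past the threshold under all 15 to 20 alternatives each could be given, and 14 were lost under at least 1. Of the 79 others, 15 passed under at least 1 alternative. Srm in immortalized MlxKO against WT, at -0.09, was the pair that passed in the opposite direction under an alternative, at 0.34 without WT4, and ran from -0.31 to 0.34 as single libraries were left out. The number of the 10 genes called moved as follows. In primary MlxKO against WT it was 1 with DESeq2 and 0 to 1 when single libraries were left out. In the primary interaction it was 0 with no filter, with the filter at a mean of 5 CPM, with median-ratio scaling, with edgeR and where limma, edgeR and DESeq2 all had to pass, and 0 to 1 without single libraries. In primary DKO against MycKO it was 0 to 3 without single libraries. With only the groups compared it was 1 in immortalized MycKO against WT, 0 in DKO against WT and 1 in DKO against MycKO. In immortalized DKO against WT it was 2 with edgeR and with DESeq2. In the immortalized interaction it was 3 with library totals. Without single immortalized libraries it was 1 to 3 in MycKO against WT, 0 to 4 in DKO against WT, 0 to 1 in DKO against MycKO and 2 to 6 in the interaction. With WT4 left out of the shared spread, an alternative chosen after seeing the data, it was 1 in DKO against MycKO. The cause was not tested. No paired analysis was possible because no label links a column's number to a replicate. With 3 libraries per group no ratio could pass by exact permutation. Paox and Smox had the fewest reads, from 112 upwards.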
